A study of Homo sapiens with 6 samples.

Results

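The class I histone deacetylases work inside large corepressor complexes, and the 37 mouse genes described here encode subunits of those complexes other than the deacetylases. They were chosen by name, from textbook membership of the Sin3, NuRD, NCoR, CoREST, CtBP and MIER complexes. The rule itself used no measured value, although earlier results of these data were known when the list was drawn up. All 37 were among the 22413 genes listed, and all 37 passed the expression filter (0.5 FPKM or more on average), which left 12163 genes for testing. FPKM is the number of sequenced fragments on a gene scaled to its length and to the total of the library, so levels in FPKM can be compared between genes.

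The RNA came from BaF3-T315I cells, a murine line derived from the interleukin-3 dependent pro-B line Ba/F3 and stably carrying BCR-ABL with the T315I mutation, which makes the kinase resistant to imatinib. The control group was labelled only as control, with no vehicle or time named, and held 3 samples. The I13 group held 3 samples of the same line treated with I13 at 1.1 µM over 48 h, and I13 is an HDAC inhibitor under study as an antileukemic agent. All samples carried the BCR-ABL transgene, and the controls differed from the I13 group in the labels by treatment alone.

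HDAC1 and HDAC2 are recruited to chromatin by Sin3, NuRD, CoREST and MIER proteins, whereas HDAC3 is held and activated in the NCoR complex. The subunits around the enzymes act as scaffolds, histone chaperones, ATPases, readers of methylated DNA or histones, and bridges to transcription factors, and together they direct deacetylation to particular genes and repress them. HDAC inhibitors block the catalytic site, and the level of the surrounding subunits is a separate quantity, which is what these data measure at the RNA level.

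Library totals recovered from the values lay between 16762119 and 17722950 fragments, and each member had between 140 and 10600 fragments in a sample. Of the markers of the parent line, 5 of 6 were listed and their summed level was 467 to 908 FPKM in control and 939 to 1680 FPKM in I13 samples. Among 6 listed B-lineage markers Cd79a and Cd79b passed the filter, while Pax5, Ebf1, Vpreb1 and Igll1 were at 0.11 FPKM or below in every sample. The 3 erythroid markers (Klf1, Hba-a1 and Hbb-bs) summed to 7.52 to 11.1 FPKM in control and 15.8 to 20.01 FPKM in I13 samples, with Hbb-bs at 0.777 FPKM or below. The 4 listed granulocyte and monocyte markers summed to 1.43 to 1.81 FPKM in control and 2.11 to 4.15 FPKM in I13 samples, with Mpo at 0.0166 FPKM or below. The 4 T cell markers summed to at most 0.448 FPKM in any sample, and the 1 listed fibroblast marker, Col1a1, was at most 0.13 FPKM. The summed levels of the parent line, erythroid and granulocyte and monocyte lists thus did not overlap between the groups. Most of each sum came from Csf2rb and Csf2rb2, from Klf1 and from Lyz2. Singly, Ptprc, Csf2rb2, Jak2, Klf1, Hba-a1 and Lyz2 were higher without overlap, while Il3ra and Csf2rb overlapped. Of all genes tested, 25.2% did not overlap in either direction and 9.82% were higher without overlap. The part of these markers in the results on the subunits was not tested. Csf2rb and Csf2rb2 in the first of these lists are near-identical copies, so their separate levels are uncertain. In bulk RNA, fewer cells of a type and less RNA per cell cannot be told apart.

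In control cells the subunits covered a 236-fold range of levels. The median member stood at 17.9 FPKM, against 7.38 FPKM for all genes tested. Rbbp7, a WD-repeat histone chaperone, was the most abundant at 184 ± 22.4 FPKM (SD, n = 3), followed by the NuRD ATPase Chd4 at 70.4 ± 3.21 FPKM. Mta2, Mbd3, Ctbp1, Mta1 and Brms1 also lay above 50 FPKM. Another 24 members lay between 5 and 50 FPKM and 5 between 1 and 5 FPKM. Rcor3, a paralog of the CoREST scaffold, was the lowest at 0.779 ± 0.199 FPKM. In I13 cells the median of the member means was 16.2 FPKM, and Rbbp7 and Chd4 were still ranked first and second.

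**Figure D1:**
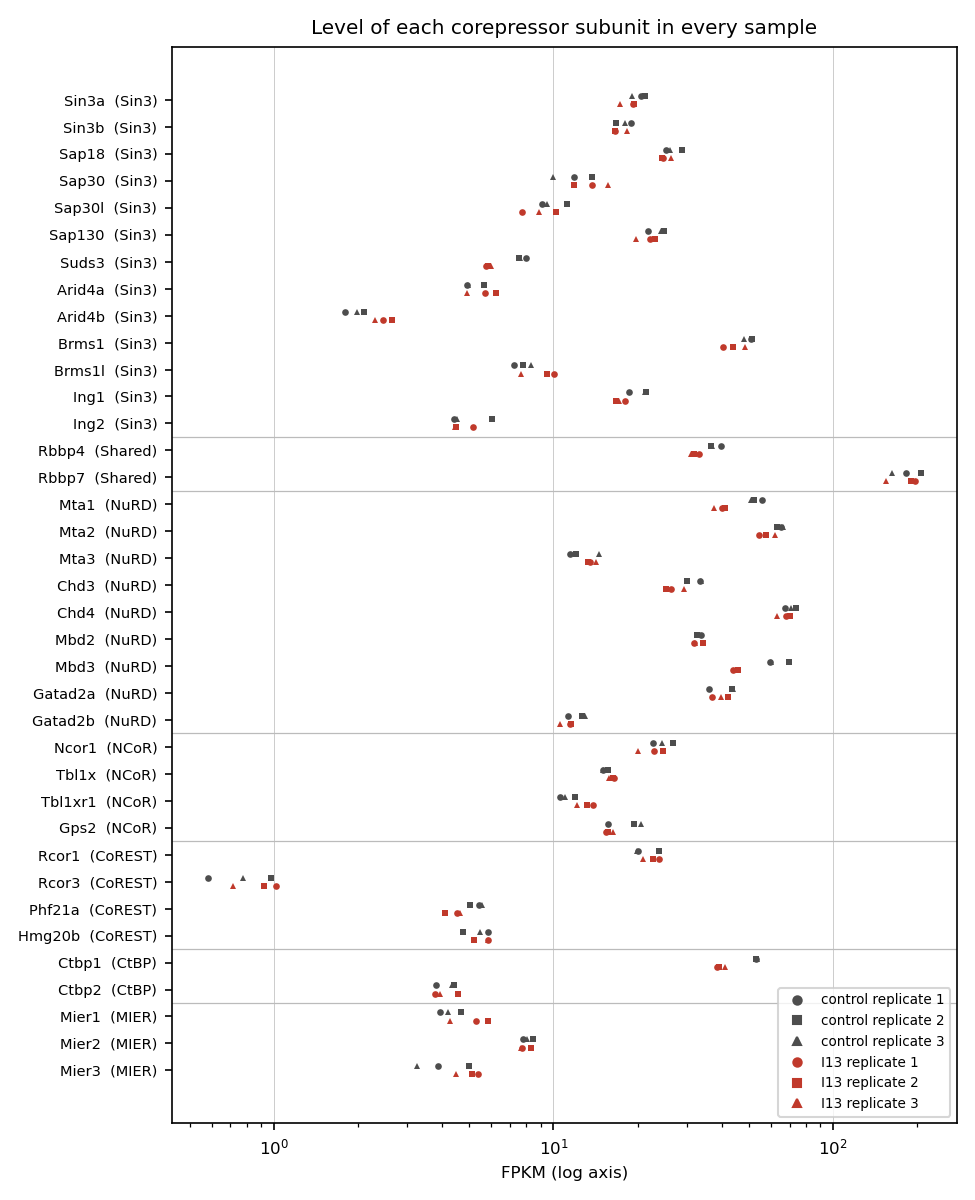
Level of each of the 37 subunits in every sample (FPKM, log axis), with 3 control samples in grey and 3 I13 samples in red, marker shapes for replicates 1, 2 and 3, and members grouped by complex. Rbbp7 stands highest, at 155 to 207 FPKM, and Rcor3 lowest, at 0.5799 to 1.02 FPKM.

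Between I13 and control cells, 25 subunits had a lower mean and 12 a higher one on the scale of log2(FPKM + 0.1), on which differences of low genes come out too small. The lower share was 67.6%, against 50.8% of all genes tested. The median log2 difference, I13 minus control, was -0.07 for the subunits and -0.01 for all genes, and single members ranged from -0.48 (Mbd3) to 0.32 (Mier3). The main limma fit took the samples as unpaired, with Benjamini-Hochberg adjustment over all 12163 genes. Calls needed an adjusted p below 0.05 together with a log2 difference of 0.58 or more in size. No member (0 of 37) met that call, and 0.0411% of all genes did. The paper reports more genes past the same limits, by a test that it does not name. The adjusted p of the members lay between 0.0989 and 0.928. At an unadjusted limma p below 0.05, 8 members were lower (21.6%, against 10.8% of all genes) and 0 were higher (against 7.79%). By voom on fragments recovered from the values, 8 were lower and 1 higher (against 10.7% and 8.64% of all genes). After median-ratio scaling 5 were lower and 2 higher (against 9.45% and 9.69%), and on TPM values 6 were lower and 0 higher (against 8.11% and 8.39%). None of the 37 reached the fold limit of 0.58 in either direction, which 9.41% of all genes did whatever their p. For 28 members (75.7%) the 95% interval of the difference lay wholly within 0.58 of 0, as it did for 51.3% of all genes. For these 28, a change of that size lay outside the interval. None of the shares of all genes was matched for level, and the median control level was higher for the members (17.9 against 7.38 FPKM).

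Samples of both groups carry the same replicate numbers, and same-numbered samples deviated together. With the replicate number as a block, the lower levels of Mta1, Mbd3 and Ctbp1 reached an adjusted p below 0.05 in limma, 8.11% of the members against 2.99% of all genes in either direction and 1.24% lower. When any 1 pair was left out, the adjusted p of all 3 lay from 0.0758 to 0.305. Fewer samples entered those fits, which alone raises p, so they cannot tell whether a result hangs on 1 pair. The log2 differences then lay between -0.46 and -0.39 for Mta1, -0.52 and -0.42 for Mbd3, and -0.45 and -0.41 for Ctbp1. When voom weights from recovered fragments were added to the block, Suds3 joined Mta1, Mbd3 and Ctbp1, making 4 lower members (10.8%) against 5.78% of all genes. In neither blocked fit did any member also reach the fold limit, which 1.89% and 4.14% of all genes did. At an unadjusted limma p below 0.05 the blocked fit had 8 members lower (21.6%, against 14.8% of all genes) and 0 higher. With voom weights added, 8 were lower (21.6%, against 15.4%) and 4 higher. The share of all genes on the higher side was not computed for these fits.

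**Figure D2:**
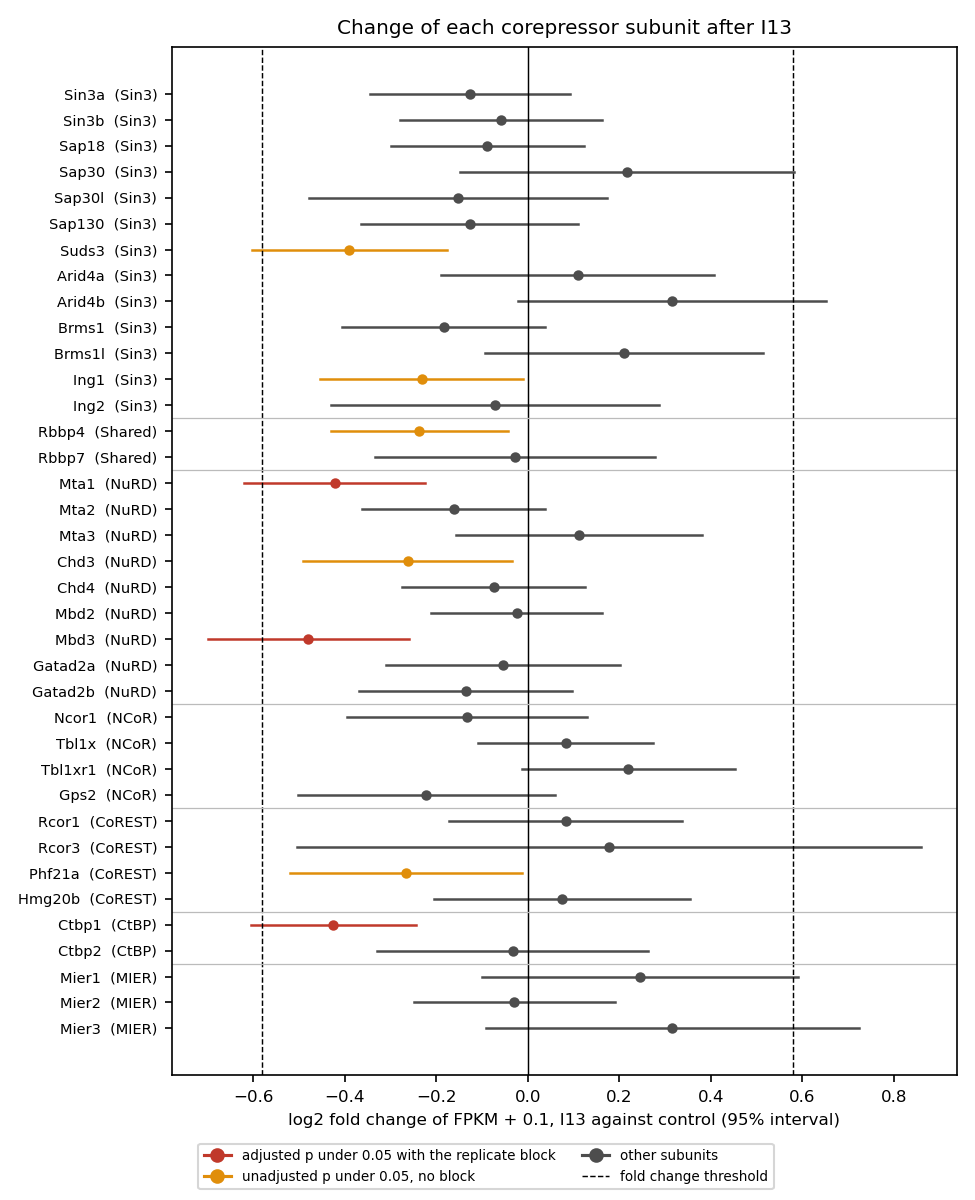
Log2 difference in level, I13 minus control, for each of the 37 subunits grouped by complex, with the 95% interval from limma without the replicate block and dashed lines at 0.58 in both directions. Red marks an adjusted p below 0.05 with the block (Mta1, Mbd3 and Ctbp1) and orange the other 5 members with an unadjusted p below 0.05, and all 8 lie between -0.48 and -0.23.

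NuRD joins a deacetylase module to a nucleosome-remodelling ATPase. Of its 9 subunits considered here, 8 had a lower mean in I13 cells and 1, Mta3, a higher one, with a median log2 difference of -0.14. Mta1, Mta2, Chd3 and Mbd3 were lower with no overlap between the groups. Among the 37 members 9 were lower and 3 higher without overlap, against 15.4% and 9.82% of all genes.

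Mta1 is one of the scaffolds that bind HDAC1 and HDAC2. Its level was 55.7, 52.3 and 50.8 FPKM in control replicates 1, 2 and 3 and 40.0, 40.9 and 37.4 FPKM in the I13 replicates. Every I13 sample was below every control sample, and the change in the mean was -25.4%. The log2 difference was -0.42 (SE 0.084, 95% interval -0.62 to -0.22), with a limma adjusted p of 0.109, and of 0.0454 with the replicate block.

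Mbd3, the NuRD subunit that resembles Mbd2 but binds methylated DNA poorly in mammals, had the lowest log2 difference of the 37. It measured 59.4, 69.8 and 59.97 FPKM in control and 43.7, 45.8 and 45.7 FPKM in I13 samples. Control replicate 2 was the highest, and all 3 I13 samples lay close together below the controls. The log2 difference was -0.48 (SE 0.094, 95% interval -0.70 to -0.26), with limma adjusted p of 0.109 without and 0.0447 with the block. Without control replicate 2 the difference was -0.40.

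Chd3, an ATPase related to Chd4, measured 33.5, 30.1 and 33.6 FPKM in control and 26.4, 25.3 and 29.3 FPKM in I13 samples. The groups came close to each other without overlapping. Its log2 difference was -0.26 (95% interval -0.49 to -0.03), with a limma adjusted p of 0.218. Chd4 itself was at 67.0, 73.5 and 70.7 FPKM in control and 68.0, 69.9 and 62.8 FPKM in I13 samples, which overlapped.

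Mta2 measured 65.0, 63.0 and 66.4 FPKM in control and 54.3, 57.7 and 62.0 FPKM in I13 samples, lower without overlap and with a limma adjusted p of 0.350. Mta3 measured 11.5, 12.0 and 14.6 FPKM against 13.5, 13.3 and 14.2 FPKM, within the control range in all 3 I13 samples. The methyl-CpG reader Mbd2 measured 33.6, 32.6 and 33.4 FPKM in control, and the I13 samples at 31.7, 34.2 and 32.1 FPKM lay on both sides of that range. The groups also overlapped for the linker subunits Gatad2a and Gatad2b (p66 alpha and beta), at 41.2 ± 4.39 and 39.6 ± 2.65 FPKM for Gatad2a and 12.3 ± 0.922 and 11.2 ± 0.578 FPKM for Gatad2b in control and I13 cells.

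Rbbp4 and Rbbp7 are WD-repeat proteins that bind histones and belong to both Sin3 and NuRD. Rbbp4 measured 39.6, 36.6 and 36.9 FPKM in control and 33.1, 31.8 and 30.9 FPKM in I13 samples, a log2 difference of -0.24 (95% interval -0.43 to -0.04) with a limma adjusted p of 0.199. All I13 values lay below all control values. Rbbp7 measured 182, 207 and 162 FPKM against 196, 190 and 155 FPKM, a difference of -0.03 that turned to 0.00134 on TPM values. Its samples spread by 12.2% (coefficient of variation) in each group, where counting alone gives 1.03% and 1.05%, and replicate 3 was the lowest in both groups.

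**Figure D3:**
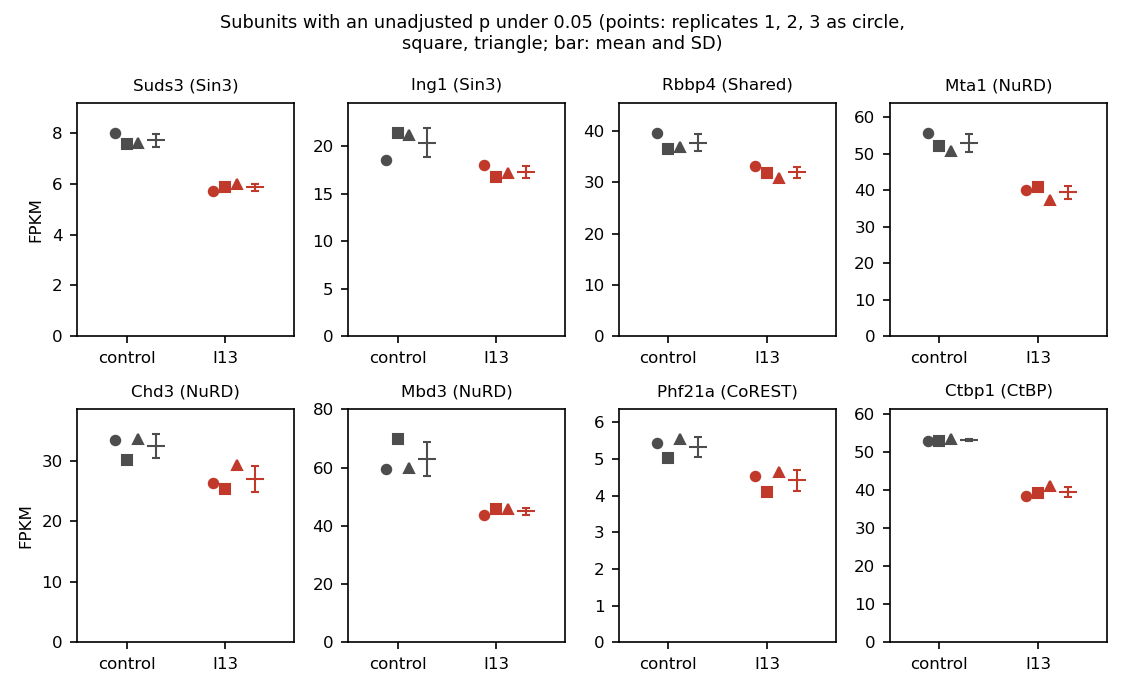
Level of the 8 subunits with an unadjusted limma p below 0.05 in each sample (FPKM, 1 panel a gene, axes from 0), with replicates 1, 2 and 3 as circle, square and triangle and the mean with its SD beside them. In all 8 panels the 3 I13 samples lie below the 3 control samples.

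In the Sin3 complex, built on the paired-helix scaffolds Sin3a and Sin3b, 9 of 13 subunits had a lower mean and 4 a higher one, with a median log2 difference of -0.09. Suds3, the homolog of yeast Sds3 that supports the deacetylase activity of the complex, stood furthest from 0. It measured 7.99, 7.54 and 7.58 FPKM in control and 5.73, 5.85 and 5.99 FPKM in I13 samples. The gap between the groups was wider than the range inside either group. The log2 difference was -0.39 (SE 0.091, 95% interval -0.60 to -0.18), and the limma adjusted p was 0.116, or 0.0707 with the block and 0.0178 when voom was added to it.

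Ing1, a PHD-finger protein that binds methylated histone H3, measured 18.6, 21.4 and 21.2 FPKM in control and 18.0, 16.8 and 17.2 FPKM in I13 samples. Control replicate 1 lay close to I13 replicate 1, and the log2 difference was -0.23 (95% interval -0.45 to -0.01) with a limma adjusted p of 0.252. Its paralog Ing2 was at 4.39, 6.05 and 4.51 FPKM against 5.17, 4.49 and 4.45 FPKM, overlapping groups.

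Arid4b, a large subunit that binds the retinoblastoma protein, was the Sin3 subunit with a higher level and no overlap. It measured 1.79, 2.11 and 1.99 FPKM in control and 2.46, 2.64 and 2.30 FPKM in I13 samples. The log2 difference was 0.32 (95% interval -0.02 to 0.65) with a limma adjusted p of 0.290. Arid4a, which binds the same protein, measured 4.90, 5.67 and 4.94 FPKM against 5.67, 6.22 and 4.91 FPKM.

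The scaffolds differed little between groups, with Sin3a at 20.3 ± 1.07 and 18.6 ± 1.17 FPKM and Sin3b at 17.9 ± 1.12 and 17.2 ± 0.940 FPKM in control and I13 cells. Sap30, which bridges the scaffold and the enzyme, measured 11.9, 13.7 and 9.92 FPKM in control and 13.8, 11.8 and 15.7 FPKM in I13 samples, and the groups crossed. Sap30l, Sap130, Brms1 and Brms1l overlapped between the groups too, with Brms1 at 50.1 ± 1.86 FPKM in control and 44.2 ± 3.95 FPKM in I13 cells. Sap18 measured 26.8 ± 1.83 and 25.1 ± 0.956 FPKM, but a near-identical listed copy, Sap18b, had 32.0 to 33.6 FPKM in control and 30.2 to 33.3 FPKM in I13 samples, so the split of fragments between them is uncertain.

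CtBP proteins are dehydrogenase-like corepressors that sense NADH and bring HDACs to DNA-bound repressors. Ctbp1 measured 52.9, 52.8 and 53.3 FPKM in control and 38.3, 39.1 and 41.0 FPKM in I13 samples. The control samples were nearly equal, with an SD of 0.285 FPKM, and every I13 sample lay far below them. The log2 difference was -0.43 (SE 0.077, 95% interval -0.61 to -0.24), and its limma adjusted p of 0.0989 was the lowest of the 37, or 0.0447 with the block. The paper, under the same limits, lists Ctbp1 among differentially expressed genes of its chronic myeloid leukemia pathway result. In no fit here did Ctbp1 reach the fold limit, and the reason for this difference was not tested. Ctbp2 was far less abundant, at 3.79, 4.42 and 4.33 FPKM in control and 3.78, 4.56 and 3.94 FPKM in I13 samples, and its groups overlapped.

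In NCoR, the complex of HDAC3, the scaffold Ncor1 measured 22.7, 26.9 and 24.5 FPKM in control and 22.9, 24.6 and 20.1 FPKM in I13 samples, with overlap. The WD-repeat subunits Tbl1x and Tbl1xr1, which link the complex to the ubiquitin machinery that exchanges corepressors, were both higher without overlap. Tbl1xr1 measured 10.6, 12.0 and 10.99 FPKM in control and 13.8, 13.2 and 12.1 FPKM in I13 samples, a log2 difference of 0.22 with a limma adjusted p of 0.289. Tbl1x measured 15.1, 15.7 and 15.1 FPKM against 16.5, 16.3 and 15.8 FPKM, a log2 difference of 0.08 with a narrow gap between the groups. Gps2, a small subunit that binds the scaffold and the Tbl1x proteins, measured 15.7, 19.4 and 20.6 FPKM against 15.4, 15.7 and 16.3 FPKM, and control replicate 1 lay among the I13 samples.

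In CoREST, which couples HDAC1 and HDAC2 to the histone demethylase LSD1 (Kdm1a), the reader of unmethylated histone H3 Phf21a (BHC80) was lower. It measured 5.43, 5.02 and 5.54 FPKM in control and 4.53, 4.09 and 4.63 FPKM in I13 samples, without overlap, a log2 difference of -0.27 (95% interval -0.52 to -0.01) with a limma adjusted p of 0.249. The scaffold Rcor1 measured 20.1, 23.8 and 19.8 FPKM against 23.7, 22.8 and 20.8 FPKM. Rcor3 measured 0.5799, 0.978 and 0.779 FPKM against 1.02, 0.924 and 0.713 FPKM, with an interval of -0.50 to 0.86 that was the widest of the 37. The HMG-box subunit Hmg20b was at 5.34 ± 0.559 and 5.62 ± 0.353 FPKM in control and I13 cells.

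The MIER proteins carry the ELM2 and SANT domains through which such scaffolds bind HDAC1 and HDAC2. Mier1 and Mier3 were higher in all 3 same-numbered pairs, yet their groups overlapped. Mier1 measured 3.93, 4.69 and 4.21 FPKM in control and 5.27, 5.83 and 4.25 FPKM in I13 samples, and Mier3 measured 3.88, 4.996 and 3.24 FPKM against 5.39, 5.10 and 4.48 FPKM. Mier2 was at 8.08 ± 0.340 and 7.92 ± 0.373 FPKM. Of the 37 members, 13 were lower and 5 higher in all 3 pairs, against 27.3% and 24.1% of all genes.

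Of the 8 members with an unadjusted p below 0.05, Suds3, Mta1, Mbd3 and Ctbp1 stayed there in 6 of 6 fits that left out 1 sample. Rbbp4 did in 3, Chd3 and Phf21a in 2 and Ing1 in 1. The other 29 members had log2 differences from -0.22 to 0.32 and a smallest adjusted p of 0.289.

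Several subunits exist as paralogs that take the same place in a complex, so the ratio of the levels within 16 such pairs was compared between the groups. For each pair the difference in the log2 ratio of FPKM was tested by a two-sided exact permutation test, whose smallest p with 3 samples against 3 is 0.1, so no pair could reach 0.05. The groups did not overlap in 6 pairs, which share some genes and are not independent, and all 6 had that smallest p, or 0.267 after Benjamini-Hochberg adjustment. That is 37.5% of the pairs, where 25.2% of all genes tested did not overlap in their own level, and no share for ratios of other gene pairs was computed. By same-numbered samples, the ratio was lower in all 3 for 7 pairs and higher in all 3 for 3 pairs, with a two-sided exact sign-flip p of 0.25, the smallest that 3 allow.

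The pair that differed most was Mbd2 and Mbd3, alternative subunits of NuRD. Mbd2 made up 34.6% ± 2.38 of their summed FPKM in control and 42.0% ± 0.746 in I13 cells (SD, n = 3), a log2 ratio higher by 0.46. Of the summed scaffolds Mta1 and Mta2, Mta1 made up 44.9% ± 1.44 in control and 40.5% ± 2.52 in I13 cells. Mta3 stood at 16.3% ± 1.54 and 19.1% ± 0.721 of its sum with Mta2. Ctbp1 held 92.7% ± 0.547 of the CtBP sum in control and 90.6% ± 0.910 in I13 cells. Arid4a held 72.5% ± 1.013 and 69.3% ± 1.12 of its sum with Arid4b, and Tbl1x made up 57.8% and 55.4% of its sum with Tbl1xr1. In the other 10 pairs, Sin3a with Sin3b and Chd3 with Chd4 among them, the groups overlapped. Of these, Chd3 to Chd4, Rbbp4 to Rbbp7 and Mier2 to Mier3 were lower in all 3 same-numbered samples, and Gatad2a to Gatad2b was higher in all 3.

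**Figure D4:**
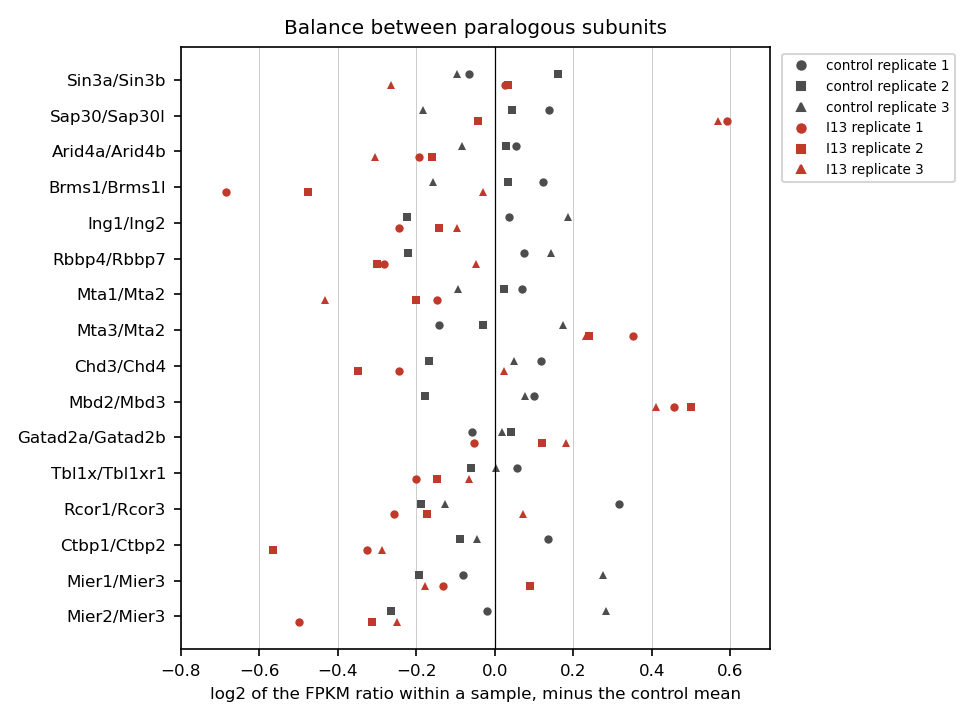
Log2 ratio of FPKM within each of 16 paralog pairs in every sample, drawn relative to the mean of the control samples, with control samples in grey and I13 samples in red. In 6 pairs the groups do not overlap, and the widest shift among these, 0.46, is that of Mbd2 over Mbd3.

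The 5 catalytic partners considered, the class I enzymes and the demethylase Kdm1a, had log2 differences between -0.23 and 0.07. At an unadjusted limma p below 0.05 there were 0 of 5. With the replicate block 1 of 5, Hdac3, was lower (against 14.8% of all genes), and with the block and voom weights it was again that 1 (against 15.4%). Hdac1 measured 34.2, 31.2 and 29.8 FPKM in control and 32.2, 29.5 and 29.9 FPKM in I13 samples, and Hdac2 measured 18.9, 22.6 and 17.2 FPKM against 23.5, 22.0 and 16.7 FPKM. Hdac3 was lower without overlap, at 18.2, 16.5 and 14.6 FPKM against 13.8, 14.3 and 13.7 FPKM, a log2 difference of -0.23 with a limma adjusted p of 0.295, or 0.170 with the block. Hdac8, a class I enzyme not known as a stable subunit of these complexes and listed here for its class, was at 3.09, 3.43 and 2.88 FPKM against 4.08, 2.79 and 2.66 FPKM, and Kdm1a was at 20.4, 21.0 and 18.8 FPKM against 19.95, 18.2 and 17.1 FPKM.

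Beyond the 37, 40 further genes tied to these complexes were listed and considered, namely the catalytic partners, accessory subunits and DNA-binding recruiters, and 36 of these passed the filter. In the limma fit 23 of them were lower (63.9%, against 50.8% of all genes) and 13 higher. At an unadjusted p below 0.05 there were 6 lower (16.7%, against 10.8% of all genes) and 1 higher (against 7.79%). With the replicate block 10 were lower (27.8%, against 14.8%) and 0 had an adjusted p below 0.05 (against 2.99% of all genes). With the block and voom weights 11 were lower (30.6%, against 15.4%), and 6 had an adjusted p below 0.05 (16.7%, against 12.4%), of which 1, Chd5, also met the fold limit.

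Among the accessory subunits, Cdk2ap1, a small NuRD subunit, measured 30.4, 34.6 and 28.3 FPKM in control and 22.9, 21.4 and 22.0 FPKM in I13 samples, with a limma adjusted p of 0.109. Zmym3, a CoREST-associated zinc-finger protein, measured 5.02, 5.30 and 5.28 FPKM against 3.94, 3.91 and 3.45 FPKM, and Dnttip1, a subunit of the mitotic deacetylase complex MiDAC, measured 6.91, 6.15 and 5.94 FPKM against 4.49, 4.84 and 4.25 FPKM. Their log2 differences were -0.49, -0.46 and -0.47, and none of the groups overlapped. With the block the limma adjusted p was 0.0561, 0.0749 and 0.0663 for Cdk2ap1, Zmym3 and Dnttip1, and with voom weights added it was 0.0157, 0.0192 and 0.0949. With 1 pair left out of the blocked fit, where fewer samples entered, the adjusted p of the 3 genes lay between 0.0971 and 0.362.

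The Spearman correlation between gene length and log2 difference was 0.21 over the 37 members and 0.08 over all genes tested, across genes that share libraries and are not independent replicates.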

How the data were processed

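RNA of 3 control and 3 I13 samples was sequenced from stranded mRNA libraries. The authors deposited FPKM values of 22413 genes per sample, normalized for gene length and library fragments, without pooling of replicates. The submitters' processing notes name Trimmomatic, HISAT2, Cufflinks and HTSeq and the build hg38, and the labels name the organism as human, although all 22413 gene identifiers are mouse Ensembl identifiers. The values were used as mouse genes, and the annotation is not given in the sources used here. No mouse sequence or coordinate was used. No column of per-sample values was left without a sample (0 of them). The 48 h exposure comes from the paper.

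Groups and replicate numbers came from the labels. Nothing there says that replicates came from separate cultures, and the paper describes its results in general as coming from independent experiments without naming the sequenced samples. If they were not separate, p-values measure only the spread between these samples, which may be technical. I13 was compared with control on log2(FPKM + 0.1) in limma 3.58.1 (eBayes with trend) in R 4.3.3, and only the 12163 genes that averaged 0.5 FPKM or more entered. Benjamini-Hochberg adjustment ran over all of them, and calls needed an adjusted p below 0.05 with a log2 difference of 0.58 or more in size. A gene length giving whole fragments within the search limit of 0.03 was found for 100% of genes. That share follows from the search limit and does not measure accuracy. The library totals were 16762119 to 17722950 fragments, and they set the precision of the low genes. Counting error was computed from the fragments and covers no other error. The fit and the recovery were tested on simulated data, the recovery only for genes with a minimum mean number of fragments.

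Pairing was checked from each sample's deviation from its group mean. Same-numbered samples correlated at 0.15, 0.30 and 0.22 across genes, and differently numbered ones at -0.26 to 0.05. Each same-number value exceeded the limit of 0.1, and the numbers were treated as pairs in the blocked fits and the same-number counts. The main fit, with its counts, errors and intervals, used no block and took the samples as unpaired. The pairing rests on the labels' numbers and this check, and a shared batch or day is stated nowhere in the sources.

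The 37 members, the partner, paralog and marker lists and the tests were chosen with earlier results of these data known. All members are described, and the genes named among the partners are the catalytic subunits and those with an unadjusted p below 0.05. Bcl11a, Sall4, Kit, S100a8, Col1a2 and Dcn are not analysed here, and a few further genes of the partner and marker lists are not reported here. Atn1, Bcl6, Gfi1 and Ikzf1 were below the filter, and Sinhcaf and Mideas were taken under their older symbols Fam60a and Elmsan1. The alternatives were other pseudocounts, no filter, median-ratio scaling, TPM values, voom on the recovered fragments, the replicate block and leaving out samples or pairs. Plots were made in Python 3.11.15 with matplotlib 3.10.9.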

Additional observations from a re-analysis of the deposited data

How the results depend on the processing

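The number of genes called among all tested was 4 higher and 1 lower and depended on the fit: 166 and 64 with the replicate block, which uses the pairing of the samples, 375 and 128 with the block and voom on recovered fragments, 2 and 0 at a pseudocount of 0.01, 2 and 0 after median-ratio scaling, and 0 to 78 and 0 to 5 when samples or pairs were left out, where fewer samples entered. Without the filter 3 genes were called lower. No member was called with the fold limit in any of these settings. The members with an adjusted p below 0.05 numbered 0, but 3 with the replicate block and 4 with the block and voom, and the block changed no other member's side of that threshold. At an unadjusted p below 0.05 the 8 lower members became 5 after median-ratio scaling and 4 to 8 with samples or pairs left out, and the 0 higher members became 1 without the filter, 2 after median-ratio scaling, 1 by voom, 4 with the block and voom, and 0 to 3 with samples or pairs left out. Median-ratio scaling and TPM moved the median of all genes by 0.02 and 0.03 (log2). Differences near 0 changed sign: Rbbp7 (0.00134) and Mbd2 (0.00474) on TPM values, and Hdac8 (0.0137 after median-ratio scaling, 0.0228 on TPM, 0.0113 with the block and voom). With samples or pairs left out, the log2 differences spanned 0 for Hdac8 (-0.20 to 0.14), Rbbp7 (-0.115 to 0.0767), Mbd2 (-0.0712 to 0.00500), Hdac1 (-0.099 to 0.000683), Ing2 (-0.22 to 0.10), Hmg20b (-0.00706 to 0.141), Ctbp2 (-0.111 to 0.0214), Mier2 (-0.0673 to 0.00294), Hdac2 (-0.0425 to 0.223), Sin3b (-0.106 to 0.0058), Rcor3 (-0.0937 to 0.34) and Sap30 (-0.00187 to 0.43), and for the ratios Rcor1/Rcor3 (-0.21 to 0.0393), Sin3a/Sin3b (-0.12 to 0.0295) and Mier1/Mier3 (-0.17 to 0.0648). The paralog pairs without overlap numbered 6 to 10 with samples left out. Leaving out a sample cannot make separate groups overlap, so this number could not fall below 6. The cause of these shifts was not tested. Of 296 member values with all samples, 287 kept their sign and side of the threshold.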

Other observations

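Among the DNA-binding proteins that recruit these complexes, Zfpm1 (FOG-1), a GATA cofactor that binds NuRD, measured 84.9, 118 and 122 FPKM in control and 69.2, 93.0 and 73.0 FPKM in I13 samples. The log2 difference was -0.46 with a limma adjusted p of 0.225, or 0.0706 with the block and 0.0199 when voom was added to it. Zeb2, a repressor that binds CtBP, measured 2.21, 2.50 and 3.12 FPKM against 3.03, 3.49 and 3.96 FPKM, with a log2 difference of 0.41 and adjusted p of 0.265, 0.0992 and 0.0161 in the same limma fits. With 1 pair left out of the blocked fit, where fewer samples entered, the adjusted p was 0.0976 to 0.317 for Zfpm1 and 0.164 to 0.405 for Zeb2. The groups of both genes overlapped, and every I13 sample lay on the same side of its same-numbered control.

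Chd5, an ATPase related to Chd3 and Chd4 that is typical of neurons, measured 2.02, 1.24 and 1.02 FPKM in control and 0.219, 0.591 and 0.596 FPKM in I13 samples, a log2 difference of -1.46 (SE 0.418) with a limma adjusted p of 0.153, or 0.1196 with the block and 0.0295 when voom was added to it. The size for this low gene depended on the processing, at -0.72 with a pseudocount of 1, -1.68 by voom and -1.84 to -0.82 with samples or pairs left out. Ehmt1, a histone H3 methyltransferase associated with CoREST and CtBP, measured 11.03, 12.2 and 11.6 FPKM against 9.82, 9.98 and 8.80 FPKM, without overlap and with a limma adjusted p of 0.196.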
